A study of Mus musculus with 24 samples.

Results

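Expression of the proteasome genes was followed in mouse macrophages and B cells treated with Kdo2 lipid A (KLA), a purified lipid A that activates the receptor TLR4. The genes were all those whose symbol on the array has the form Psma, Psmb, Psmc, Psmd, Psme, Psmf or Psmg followed by a number. This rule goes by name and uses no measured value, but it was chosen with earlier results of these data known. There were 43 such genes, represented by 66 probes, among 21597 gene symbols on the array, and all 43 were among the 17347 genes tested. The choice included 5 genes whose proteins belong to the interferon-inducible form of the proteasome (Psmb8, Psmb9, Psmb10, Psme1 and Psme2) and 38 others.

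The proteasome degrades proteins tagged with ubiquitin. Its 20S core is a barrel of alpha and beta rings with the proteolytic sites on the inside, the 19S regulatory particle with its ATPases recognises and unfolds ubiquitinated proteins, and PA28 and PA200 are alternative caps. In cells exposed to interferon gamma, and constitutively in many immune cells, the catalytic subunits encoded by Psmb8, Psmb9 and Psmb10 are built into new cores in place of those encoded by Psmb5, Psmb6 and Psmb7, giving the immunoproteasome, which is known for producing peptides that fit major histocompatibility complex (MHC) class I molecules. Psme1 and Psme2 encode the alpha and beta subunits of PA28.

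The cells came from C57BL/6 mice. Elicited peritoneal macrophages (EPM) were lavaged after injection of thioglycollate broth and kept overnight as adherent cells, bone marrow-derived macrophages (BMDM) were grown from marrow with L-cell conditioned medium as the source of M-CSF, and resting splenic B cells were the CD43-negative cells left after magnetic depletion of cells bearing CD43 or CD11b. RNA was measured on 12 Agilent 2-colour arrays, each of which held 2 biological replicates of 1 condition, replicate 1 in Cy5 and replicate 2 in Cy3, so that the 24 channels gave 12 conditions with n = 2. EPM were untreated, treated with KLA for 1 h, or treated with the solvent DMSO or KLA for 12 h, and B cells likewise. BMDM were treated with DMSO or KLA for 1 h or 12 h. The 1 h comparisons in EPM and B cells therefore set KLA against cells without DMSO. Each condition is 1 array and each cell type 1 slide, so an array cannot be told apart from its condition, nor a slide from its cell type, and p-values measure the spread between the 2 channels of an array. A fit that used array means as samples, with the controls of each cell type pooled, is given beside the counts. The pooled controls were untreated and DMSO 12 h in EPM and B cells, and DMSO 1 h and 12 h in BMDM. Its spread is that between these control arrays. It therefore holds time in culture, and DMSO in EPM and B cells, along with differences between arrays. Its changes are from the pooled control and not from the control of the same time. Levels below are normalised log2 intensities of the brightest probe of each gene. They compare conditions for 1 gene, and heights of different genes are not comparable. Differences are log2 changes, and a gene was called when its adjusted p from limma was below 0.05. RNA of whole cultures was measured, so fewer cells of a type and less RNA per cell cannot be told apart.

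No channel of a proteasome gene was saturated, and the replicate SD over the 516 combinations of gene and condition had a median of 0.07 and a maximum of 0.32. Psma8 was not well above background on any B cell array. The labelled cell types carried their defining transcripts. Pax5, a transcription factor of the B lineage, lay between 11.75 and 12.48 on the B cell arrays and between 5.86 and 6.44 on the macrophage arrays, and Csf1r, the receptor for macrophage colony-stimulating factor, lay between 13.19 and 15.22 in macrophages and between 6.27 and 6.46 in B cells.

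Promoters of 3 inducible genes and of 2 constitutive counterparts are shown first, chosen because each holds a match to a searched pattern. The windows of the inducible genes Psmb10 and Psme2 hold no match to any of the patterns, and Psmb7 has no window here. RefSeq windows of 300 bases, from 250 before to 50 after the annotated start site on GRCm38.p6, matched 36 of the 43 genes by symbol. The array's own probe coordinates are on mm8 and were not combined with them. Capitals mark the letters that matched a searched pattern, and the sequences read 5′ to 3′ along the gene. They show a GAS pattern (TTCNNNGAA) in Psmb8 at chr17:34197945-34198244 on the plus strand, a CCAAT box on the opposite strand in Psmb9 at chr17:34187281-34187580 on the minus strand, the core of an interferon-stimulated response element (ISRE, which reads GAAA, any 2 bases and GAAA again) on the opposite strand in Psme1 at chr14:55578244-55578543 on the plus strand, and the core of an antioxidant response element (ARE, TGACNNNGC) in Psmb5 at chr14:54617946-54618245 on the minus strand and in Psmb6 at chr11:70525107-70525406 on the plus strand.
Psmb8: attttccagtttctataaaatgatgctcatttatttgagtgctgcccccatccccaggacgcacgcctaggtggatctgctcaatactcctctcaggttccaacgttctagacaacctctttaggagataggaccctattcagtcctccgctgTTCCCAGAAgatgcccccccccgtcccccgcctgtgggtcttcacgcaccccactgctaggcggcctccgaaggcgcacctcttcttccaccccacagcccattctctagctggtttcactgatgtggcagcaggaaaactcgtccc
Psmb9: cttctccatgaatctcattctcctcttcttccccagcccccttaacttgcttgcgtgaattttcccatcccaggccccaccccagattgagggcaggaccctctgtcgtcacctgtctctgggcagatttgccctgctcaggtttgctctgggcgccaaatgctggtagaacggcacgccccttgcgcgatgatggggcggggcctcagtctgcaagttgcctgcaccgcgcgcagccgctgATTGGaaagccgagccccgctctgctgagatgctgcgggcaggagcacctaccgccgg
Psme1: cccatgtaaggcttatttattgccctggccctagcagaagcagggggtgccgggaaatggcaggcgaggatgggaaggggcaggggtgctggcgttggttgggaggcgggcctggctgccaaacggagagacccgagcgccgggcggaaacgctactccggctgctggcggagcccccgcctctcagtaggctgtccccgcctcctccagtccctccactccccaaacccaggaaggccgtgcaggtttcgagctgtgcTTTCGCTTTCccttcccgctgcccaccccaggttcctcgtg
Psmb5: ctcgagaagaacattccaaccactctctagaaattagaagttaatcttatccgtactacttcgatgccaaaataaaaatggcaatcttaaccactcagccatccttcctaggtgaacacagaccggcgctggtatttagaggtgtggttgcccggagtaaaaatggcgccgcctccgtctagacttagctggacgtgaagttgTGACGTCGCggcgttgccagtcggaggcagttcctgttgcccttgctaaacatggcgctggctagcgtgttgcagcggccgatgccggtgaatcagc
Psmb6: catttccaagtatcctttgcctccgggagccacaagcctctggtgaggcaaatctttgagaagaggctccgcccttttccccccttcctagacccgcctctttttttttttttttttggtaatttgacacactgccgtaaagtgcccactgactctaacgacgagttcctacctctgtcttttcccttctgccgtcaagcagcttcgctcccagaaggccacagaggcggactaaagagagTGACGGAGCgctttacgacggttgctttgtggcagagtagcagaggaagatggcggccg

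GAS elements are known from the response to interferon gamma, ISREs are bound by IRF factors, and ARE cores by the NFE2L1 and NFE2L2 families, of which NFE2L1 is known for raising proteasome genes when proteasome activity is low. Each pattern was searched on both strands, and a match describes letters and not a bound site. The ISRE core was in 4 of the 36 genes, Psmb3, Psmd4, Psmd9 and Psme1, and in 3.44% of all 32841 promoter windows. The GAS pattern, which reads alike on both strands, was in Psmb8 and Psmd2, and in 8.3% of all windows. The ARE core was in 6 genes, Psmb5, Psmb6, Psmc6, Psmd9, Psmd12 and Psme4, against 12.4% of all windows, and in 0 of the 5 inducible genes. The NF-kappaB pattern was in Psma7 and in 5.81% of all windows. The CCAAT box was in 13 genes and 37.4% of all windows, and Psmb9 was the 1 inducible gene that held it. Psmb9 and Tap1 are divergent neighbours, and 275 bases of their 300-base windows are the same DNA.

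**Figure D1:**
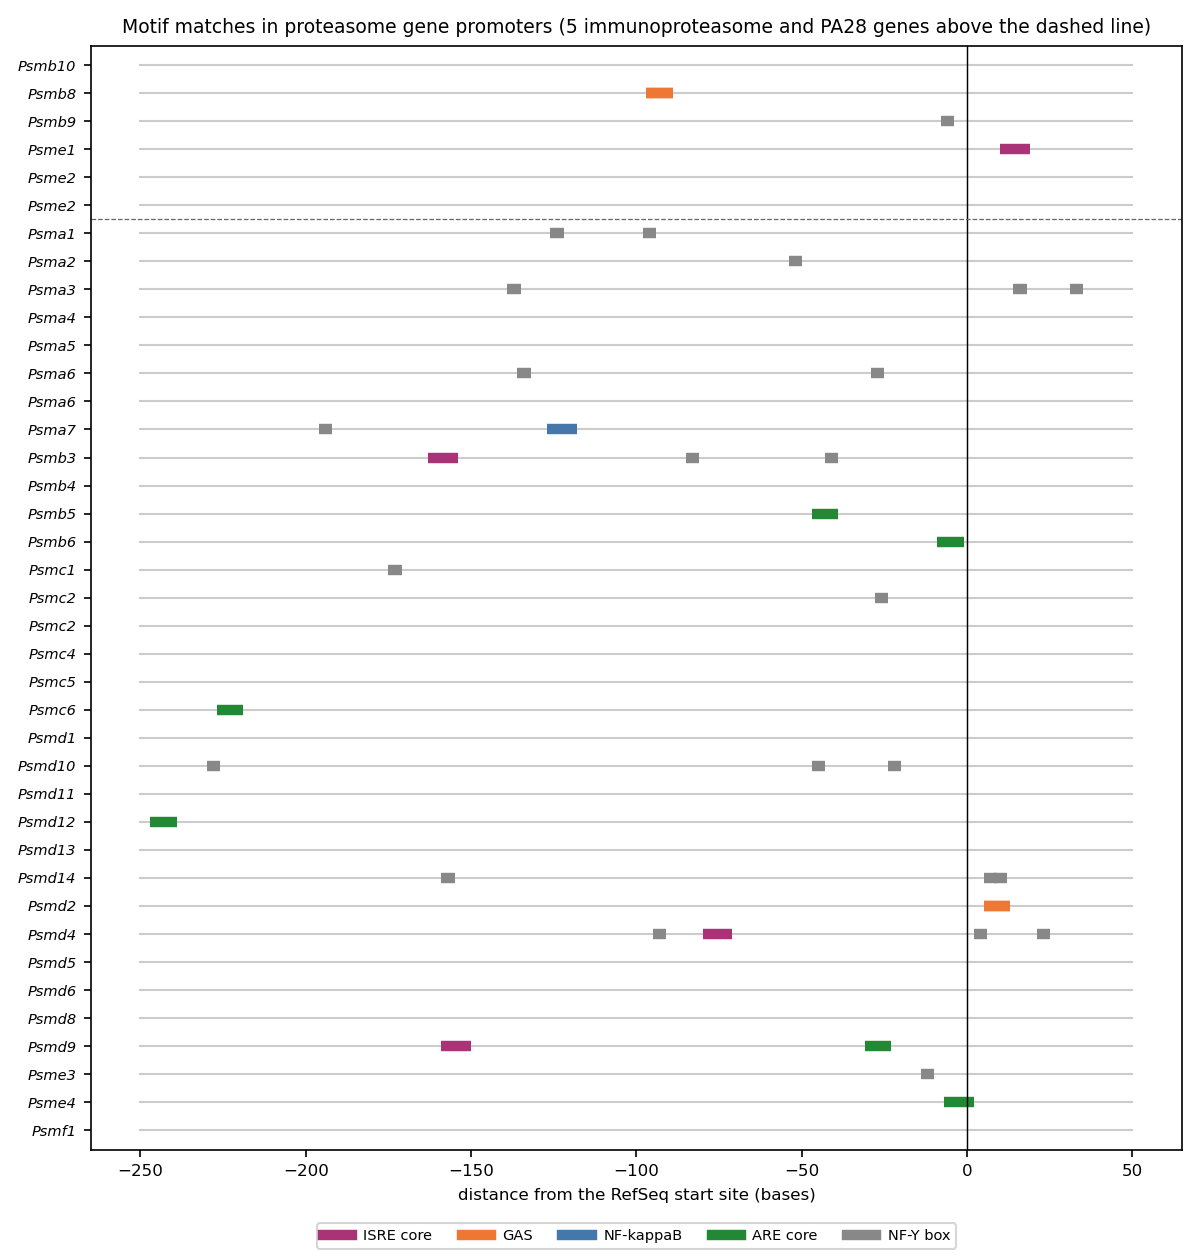
Positions of motif matches in the promoter windows of the proteasome genes, with distance from the RefSeq start site in bases on the x axis and 1 row for each window, inducible genes above the dashed line. The ARE core fell in none of the rows of the 5 inducible genes, the ISRE core in 1 of them (Psme1) and the GAS pattern in 1 (Psmb8). Of all promoter windows 12.4% held the ARE core, 3.44% the ISRE core and 8.3% the GAS pattern.

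Whether KLA changed the inducible subunits was asked first, in macrophages at 12 h. The 3 immunoproteasome catalytic subunits and both PA28 subunits were higher after KLA in EPM and in BMDM, and all 5 were higher in both channels than in either channel of the DMSO control. In EPM, Psmb8 stood at 12.52 and 12.80 in the DMSO channels and at 15.34 and 15.45 after KLA, a log2 change of 2.74 (SE 0.1, adjusted p = 4.85e-14). Psmb9 stood at 11.69 and 11.75 with DMSO and at 15.08 and 14.99 with KLA, a change of 3.32 (SE 0.06, adjusted p = 4.98e-19) or 9.96-fold. Psmb10 stood at 13.62 and 13.68 with DMSO and at 16.44 and 16.45 with KLA, a change of 2.80 (SE 0.06, adjusted p = 5.69e-18). Psmb9 had the highest increase of the 43 genes in EPM.

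In BMDM the order was different. Psmb10 went from 13.69 and 13.72 with DMSO to 15.91 in both KLA channels, a change of 2.20 (SE 0.06, adjusted p = 1.95e-16). Psmb9 went from 13.14 and 13.12 to 14.84 and 14.91, a change of 1.75 (SE 0.06, adjusted p = 5.14e-15), and Psmb8 from 13.66 and 13.72 to 15.07 in both channels, a change of 1.38 (SE 0.1, adjusted p = 8e-10). The catalytic subunits rose in both kinds of macrophage, with Psmb9 leading in EPM and Psmb10 in BMDM.

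The PA28 genes moved with them. In EPM, Psme1 rose from 13.16 and 13.31 to 15.28 and 15.29, by 2.04 (SE 0.07, adjusted p = 6.69e-15), and in BMDM from 13.55 and 13.59 to 15.07 and 15.05, by 1.49 (SE 0.07, adjusted p = 5.38e-13). Psme2 rose from 15.11 and 15.00 to 16.73 and 16.60 in EPM, by 1.61 (SE 0.07, adjusted p = 9.65e-13), and from 15.24 and 15.09 to 16.63 and 16.44 in BMDM, by 1.37 (SE 0.07, adjusted p = 6.98e-12). The proteins of these genes assemble into 1 ring, and neither gene's KLA channels overlapped its controls. The 5 inducible genes were called higher under every one of the 18 processing settings tried, with a largest adjusted p of 0.0233. In order of increase among all genes tested, by the probes used, Psmb9 was at place 148 in EPM and Psme2 at place 485. In BMDM Psmb10 was at place 305 and Psme2 at place 695. The second probe of Psme2 gave larger changes, 2.44 in EPM and 1.84 in BMDM, so its place depends on the probe.

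**Figure D2:**
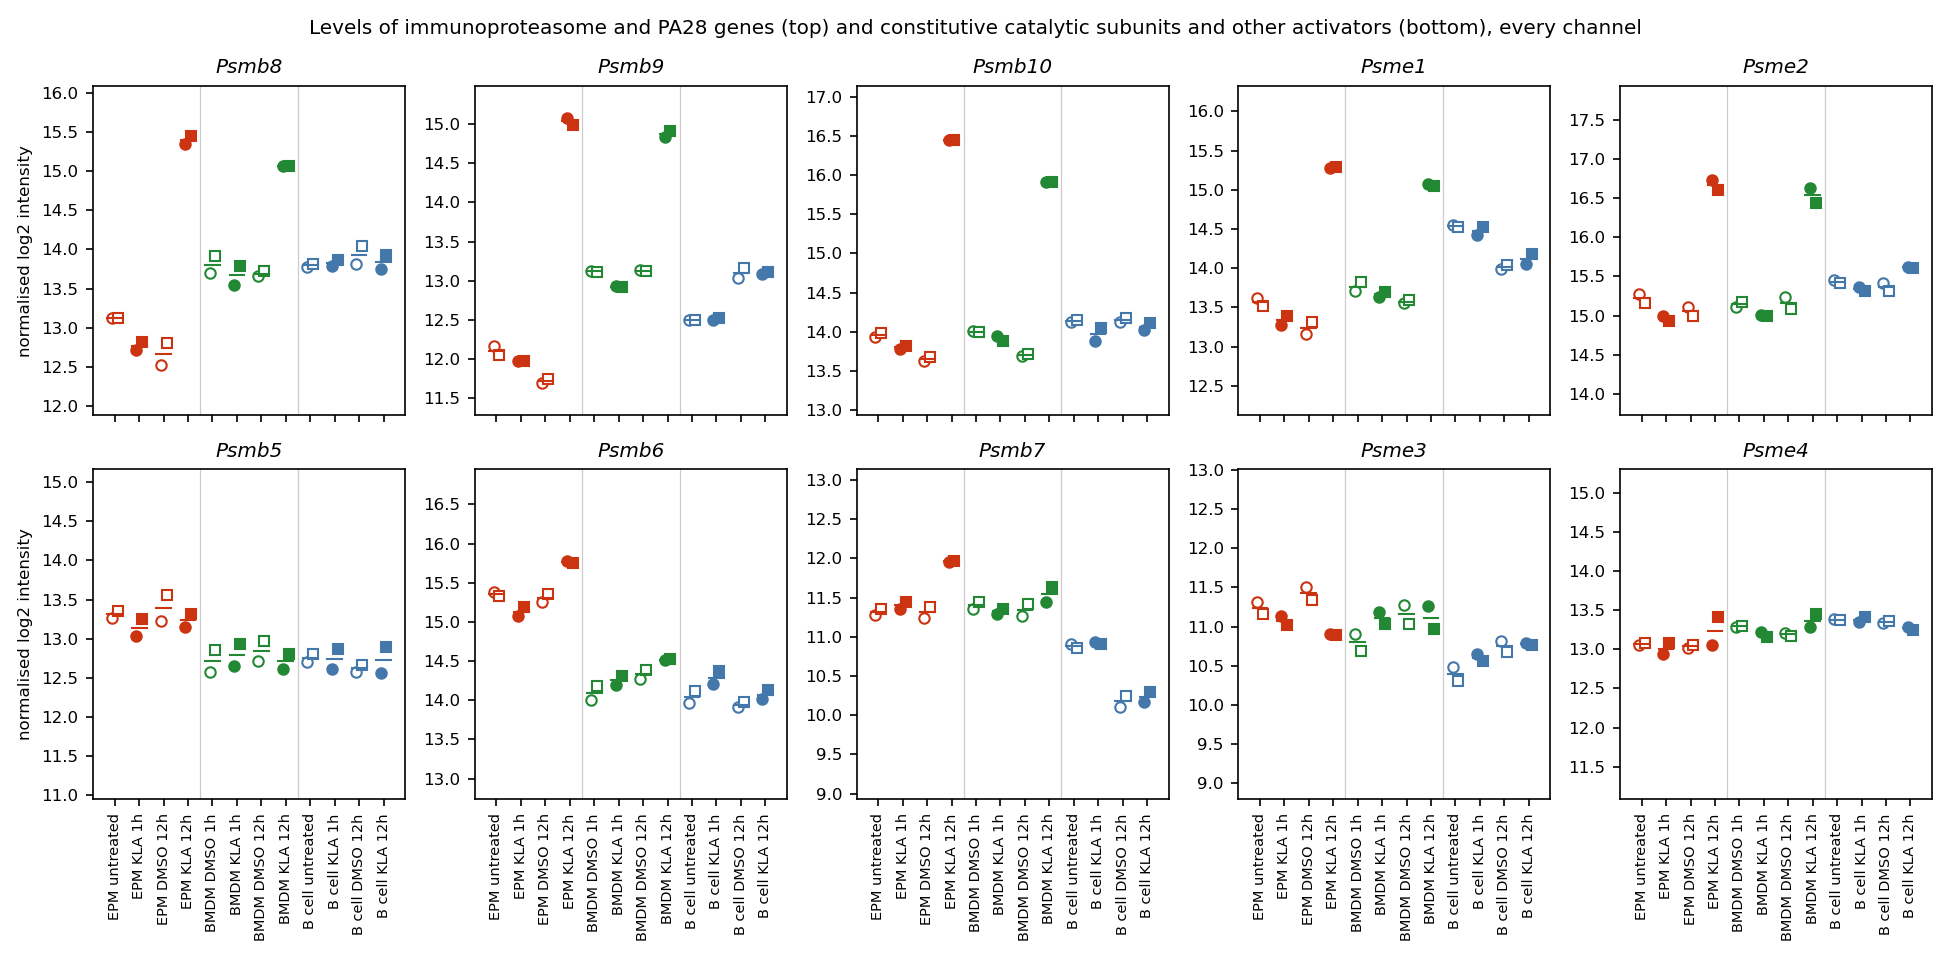
Normalised log2 intensity of the 5 inducible genes (upper row) and of 5 counterparts (lower row) in every channel, by cell type and condition, with circles for Cy5, squares for Cy3, filled symbols for KLA, open symbols for controls and a line at each mean; every panel spans the same number of log2 units. In the upper row the KLA 12 h channels of EPM and BMDM sit above all of their controls. The B cell channels of KLA and control at 12 h sit closer together. There both KLA channels lie above both controls for Psme1 and Psme2, and below them for Psmb10.

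The constitutive catalytic subunits, which the inducible ones replace, changed less or were not called. Psmb5, with chymotrypsin-like activity, was at 13.23 and 13.56 in EPM with DMSO and at 13.15 and 13.32 with KLA, and at 12.72 and 12.97 against 12.62 and 12.81 in BMDM. Its changes were −0.16 (adjusted p = 0.355) and −0.13 (adjusted p = 0.441), the groups overlapped, and the sign turned in the authors' own table, where the values were 0.08 and 0.12, also not called. With a block for dye, which pairs the channels, the EPM change had an adjusted p of 0.0244.

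Psmb6, with caspase-like activity, rose in EPM from 15.25 and 15.36 to 15.78 and 15.75, by 0.46 (adjusted p = 7.72e-05). In BMDM it was at 14.27 and 14.39 with DMSO and at 14.51 and 14.52 with KLA, a difference of 0.18 (adjusted p = 0.054, and 0.00792 with the dye block). Psmb7, with trypsin-like activity, rose in EPM from 11.24 and 11.38 to 11.96 and 11.97, by 0.66 (adjusted p = 8.58e-07), and in BMDM from 11.27 and 11.42 to 11.44 and 11.64, by 0.20 (adjusted p = 0.0344).

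Set against its counterpart on the same arrays, each inducible subunit changed more. At 12 h the change of Psmb8 exceeded that of Psmb5 by 2.90 in EPM and 1.51 in BMDM, that of Psmb9 exceeded Psmb6 by 2.86 and 1.57, and that of Psmb10 exceeded Psmb7 by 2.14 and 2.01. In each of these pairs both KLA channels lay above both control channels. For PA28, Psme1 exceeded Psme3 by 2.58 in EPM and 1.53 in BMDM. With n = 2 per condition the exact permutation test of a pair cannot go below p = 0.333, so no pair can pass 0.05 on its own.

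Over the whole set at 12 h, 25 of the 43 genes were called higher in EPM, 3 lower and 15 neither, where 53.9% of all genes tested were called, 19.6% higher and 34.3% lower. In BMDM 17 were called higher, 12 lower and 14 neither, where 65% of all genes were called, 28.6% higher and 36.3% lower. The median change of the 43 genes was 0.27 in EPM and 0.11 in BMDM, against −0.06 and −0.03 over all genes. Without the 5 inducible genes, 20 were higher and 3 lower in EPM (median 0.26) and 12 were higher and 12 lower in BMDM (median −0.04). The split in BMDM depends on the scaling, since in the authors' normalised values 25 of the 43 were higher and 3 lower there. When array means were the samples, 11 of the 43 were called in EPM and 10 in BMDM, where 11.6% and 21.1% of all genes were, and all 5 inducible genes were among them in both.

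The alpha ring forms the gate of the core. Of its 8 genes, 6 were higher and 1 lower in EPM (median 0.76), and 5 were higher and 2 lower in BMDM (median 0.36). Psma5 led them in EPM, from 14.09 and 14.18 to 15.45 and 15.54, a change of 1.36, and rose by 0.64 in BMDM, from 14.12 and 14.18 to 14.77 and 14.82. Psma2 changed by 0.86 in EPM and 0.42 in BMDM, Psma4 by 0.81 and 0.60, Psma3 by 0.80 and 0.30, and Psma6 by 0.72 and 0.76. Psma6 was the alpha subunit with the highest change in BMDM. Psma8, known as the alpha subunit of testis, was low on every array and fell in both, from 7.84 and 7.98 to 7.12 and 7.10 in EPM (by 0.80, adjusted p = 9.26e-10) and from 7.98 and 7.99 to 7.01 and 7.06 in BMDM (by 0.95, adjusted p = 5.3e-11). Psma1 was lower by 0.24 in BMDM, and at 0.10 and not called in the authors' table.

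Of the 4 beta ring genes without a catalytic site, 1 was higher in EPM (median 0.1) and 1 was higher and 2 lower in BMDM (median 0). Psmb2 was the higher one in both, by 0.39 in EPM and 0.66 in BMDM. Psmb1 and Psmb3 were lower in BMDM, by 0.18 and 0.17 in size. In the authors' normalised values 3 of the 4 genes were called higher there and 0 lower, with a median of 0.4. Psmb1 stood at 0.09 and was not called in those values, so Psmb3 was among the genes called higher. The direction of both genes therefore turned with the scaling. The second probe of Psmb3 gave −0.04 in BMDM.

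By the probes used, the ATPase ring of the 19S particle went apart between the macrophages. Of its 6 genes 3 were called higher in EPM (median 0.23), and 0 were higher and 4 lower in BMDM (median −0.21). Psmc3 was lowest in BMDM at −0.41 (adjusted p = 1.71e-05), followed by Psmc1 at −0.30, Psmc4 at −0.23 and Psmc6 at −0.20. In the authors' normalised values 1 of the 6 was lower in BMDM (Psmc3, at −0.24) and 1 higher, with a median of 0.05, so the direction of this group turned with the scaling there. In BMDM second probes gave 0.15 for Psmc4, −0.01 for Psmc6, 0.34 for Psmc5 and −0.10 for Psmc2. The probes used gave −0.23, −0.20, −0.04 and −0.07 there. In EPM the second probes gave 0.40, 0.16, 0.39 and 0.08. With the probes used, the difference of the EPM and BMDM responses was called for Psmc1 (0.56), Psmc6 (0.46), Psmc4 (0.42), Psmc3 (0.41) and Psmc2 (0.26).

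Of the 11 other 19S subunits, 6 were higher and 1 lower in EPM (median 0.23), and 3 were higher and 4 lower in BMDM (median −0.07, and 0.23 in the authors' table). Among the lid subunits, Psmd11 changed by 0.70 in EPM and 0.20 in BMDM, Psmd13 by 0.57 and 0.45 and Psmd12 by 0.49 in EPM. Psmd1, a scaffold of the base, was at 11.85 and 11.67 with DMSO and at 12.13 and 11.93 with KLA in EPM, a change of 0.27 (adjusted p = 0.0377), and at 11.76 and 11.62 against 11.27 and 11.18 in BMDM, a change of −0.47 (adjusted p = 0.000704). It was called in opposite directions in the 2 macrophages, and in the authors' table it was also lower in BMDM, at −0.36. When array means were the samples it was called in neither, at 0.32 in EPM (adjusted p = 0.571) and −0.55 in BMDM (adjusted p = 0.218). Psmd2, the other base scaffold, was lower in both, by 0.32 in EPM (adjusted p = 0.0041) and 0.33 in BMDM (adjusted p = 0.00246), and not called in the authors' table, at −0.07 and 0. Without normalization between arrays its EPM value was 0.03.

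Psmd10, which encodes gankyrin, a chaperone of 19S assembly, had the highest change outside the inducible genes. It rose from 10.03 and 9.99 to 11.87 and 11.68 in EPM, by 1.77 (SE 0.13, adjusted p = 9.11e-10) or 3.4-fold, and from 10.00 and 9.78 to 11.57 and 11.30 in BMDM, by 1.55 (SE 0.13, adjusted p = 3.79e-09) or 2.92-fold. The KLA and DMSO channels did not overlap in either macrophage. Of the other chaperones of 19S assembly, Psmd5 rose by 0.46 in EPM, and Psmd9 was called in neither.

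The remaining caps and the inhibitor were called in part. Psme3, which encodes the nuclear PA28 gamma, was at 11.51 and 11.34 with DMSO and at 10.90 and 10.89 with KLA in EPM, a fall of 0.54 (adjusted p = 0.000363). In BMDM it was at 11.28 and 11.03 with DMSO and at 11.26 and 10.97 with KLA, a change of −0.04 (adjusted p = 0.744). Psme4, which encodes PA200, changed by 0.19 in EPM (adjusted p = 0.0655) and 0.18 in BMDM (adjusted p = 0.0695), and both passed with the dye block, at 0.0284 and 0.0327. Dimmer probes of Psme4 that were well above background in all 24 channels gave 0.68 and 0.39 in EPM, and 0.60 and 0.46 in BMDM. Psmf1, an inhibitor of the core known as PI31, rose by 0.64 in BMDM (adjusted p = 0.000536) and changed by 0.29 in EPM (adjusted p = 0.0885, and 8.2e-05 with the dye block). Its 2 other probes gave 0.39 and 0.26 in BMDM, and −0.05 and −0.03 in EPM.

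**Figure D3:**
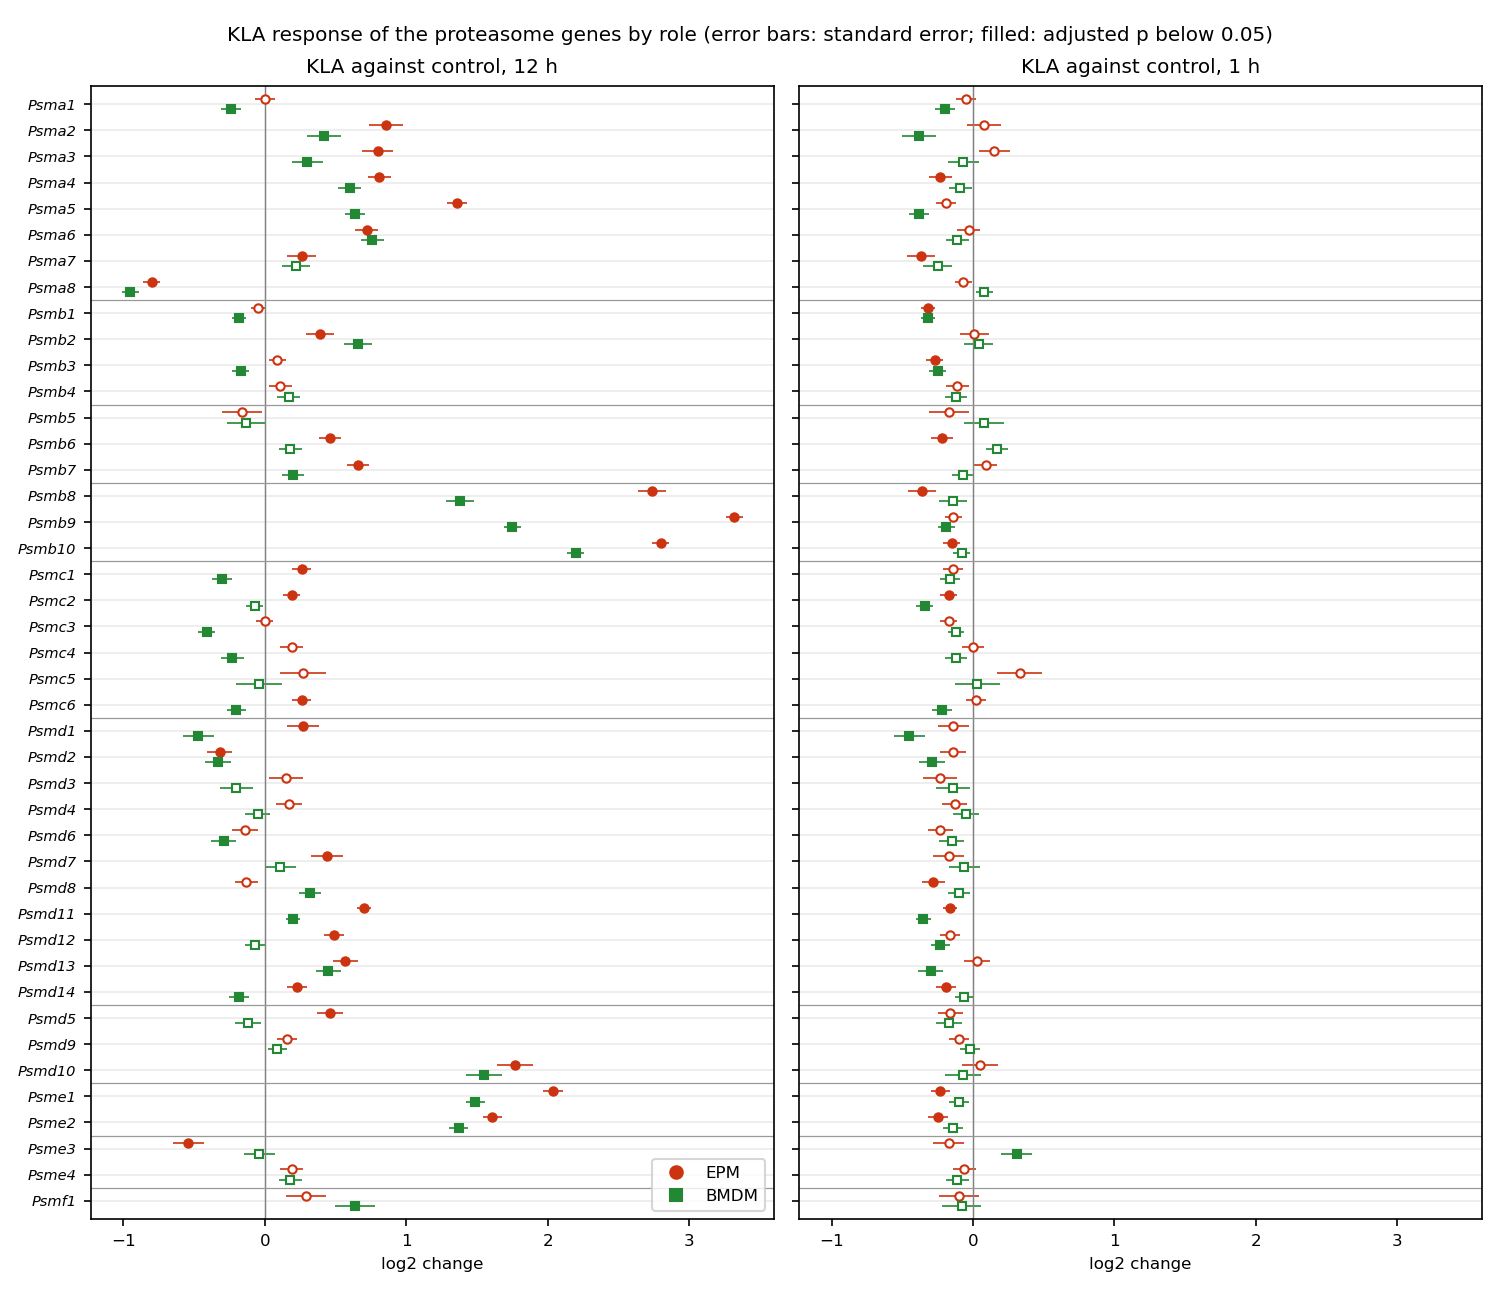
Log2 change after KLA of each of the 43 genes, grouped by role, at 12 h (left) and 1 h (right), with circles for EPM, squares for BMDM, bars for the SE and filled symbols for an adjusted p below 0.05. At 12 h the inducible subunits and Psmd10 stand to the right of the other genes in both macrophages, and at 1 h all changes lie between −0.45 and 0.33.

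Genes outside the set that serve the same pathway were counted from a list. Of 10 genes of peptide supply and interferon response, 9 were higher and 1 lower in each macrophage at 12 h, with medians of 1.43 in EPM and 1.32 in BMDM. Of all genes 19.6% were higher and 34.3% lower in EPM, and 28.6% higher and 36.3% lower in BMDM. Tap1, a subunit of the peptide transporter and the neighbour of Psmb9, rose from 9.09 and 8.98 to 12.95 and 12.94 in EPM (by 3.91) and from 10.60 and 10.56 to 12.82 and 12.87 in BMDM (by 2.26). Irf1, a transcription factor of the interferon response, changed by 3.73 and 2.31, and it was the 1 of these already raised at 1 h by over 2 log2 units, by 2.49 in EPM and 2.74 in BMDM. Irf8, a transcription factor of myeloid cells, changed by −0.85 and −0.39.

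The assembly factors of the core were also counted at 12 h, where 53.9% of all genes were called in EPM and 65% in BMDM. Of 4 on the array, 1 was higher and 2 lower in EPM, and 2 were lower in BMDM. Psmg1, which the array names Dscr2, changed by −0.35 in EPM and −0.86 in BMDM, and Psmg2, which it names Tnfsf5ip1, by −0.37 and −1.26. These fall outside the 43 genes because of their old symbols. Pomp, the factor that completes the core, changed by 0.27 in EPM and by 0.02, not called, in BMDM. Of 19 further partners, 5 were higher and 6 lower in EPM and 4 higher and 10 lower in BMDM. Ddi2, the protease that activates NFE2L1, fell by 1.87 in EPM and 1.47 in BMDM.

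Markers of cell types were counted at 12 h as well. Of all genes 53.9% were called in EPM, 19.6% higher and 34.3% lower, and 65% in BMDM, 28.6% higher and 36.3% lower. The counts of T cell, NK cell and erythroid markers below lie under those shares. Of 8 macrophage markers 2 were higher and 5 lower in each macrophage, and the log2 of their summed intensity lay between 18.81 and 19.05 with DMSO and between 18.55 and 18.58 with KLA in EPM, and between 18.98 and 19.01 and between 18.70 and 18.88 in BMDM. Of 7 neutrophil markers 2 were higher and 1 lower in EPM and 4 higher and 1 lower in BMDM, where the summed level rose from 13.29 and 13.52 to 14.28 and 14.48. Of 7 B cell markers 3 were higher and 2 lower in each, and their summed level went from 16.01 and 15.98 to 15.95 and 15.88 in EPM and from 14.83 and 14.84 to 14.30 and 14.46 in BMDM. Most of that sum was Blnk, an adaptor protein of B cell receptor signalling, at 15.84 or more in EPM, while Pax5 was at no more than 6.44. Of 6 T cell markers 1 was higher in EPM and 2 in BMDM, of 4 dendritic cell markers 2 were higher and 1 lower in each (the summed level went from 13.77 and 13.61 to 12.25 and 12.28 in EPM and from 9.58 and 9.65 to 9.88 and 9.84 in BMDM), of 3 NK cell markers 1 was lower in BMDM, and of 4 erythroid markers 1 was higher and 1 lower in BMDM. The part of these in the proteasome changes was not tested.

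The responses of EPM and BMDM were then compared with each other. At 12 h the difference of the responses was called for 22 of the 43 genes, 20 with a higher value in EPM and 2 with a lower one, where 47.8% of all genes were called, 23.2% higher and 24.6% lower. Psmb9 differed by 1.57 (adjusted p = 2.35e-11) and Psmb8 by 1.36 (adjusted p = 3.59e-07), followed by Psmd1 at 0.74, Psma5 at 0.72 and Psmb10 at 0.59. Psme1 differed by 0.55. Psme2 was not called, at 0.24, nor was Psmd10, at 0.22 (adjusted p = 0.341). The second probe of Psme2 changed by 2.44 in EPM and 1.84 in BMDM, against 1.61 and 1.37 for the probe used. Its difference was not tested on its own. The 2 genes with a lower signed value in EPM were Psmd8, at −0.45, and Psme3, at −0.49.

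The control levels of the macrophages differed as well. With DMSO at 12 h, Psmb9 was lower in EPM than in BMDM by 1.41 and Psmb8 by 1.03, while after KLA EPM stood above BMDM by 0.16 and 0.33. The same values were −0.33 and 0.22 for Psme1, −0.11 and 0.13 for Psme2, and −0.06 and 0.53 for Psmb10. By its second probe, Psmb8 with DMSO at 12 h stood at 11.85 and 11.75 in EPM and at 13.42 and 13.26 in BMDM. These levels were set across slides and are given with no test.

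Psmb9 and Psmb8 were also lower in EPM than in BMDM among the early controls. In EPM without treatment, set against BMDM with DMSO for 1 h, 11 of the 43 genes were higher and 9 lower, where 57.8% of all genes were called, 28.5% higher and 29.3% lower. Psmb9 differed by −1.01 and Psmb8 by −0.68, while the constitutive Psmb6 differed by 1.26 and Psmb5 by 0.60. By the probes used, resting B cells set against untreated EPM were higher in all 5 inducible genes, led by Psme1 at 0.98 and Psmb8 at 0.67. They were lower in Psmb6 by 1.31. Of the 43 genes 17 were higher and 17 lower, where 77.2% of all genes were called, 38.5% higher and 38.6% lower. The second probe of Psmb8 put EPM further below both other cell types. It stood at 11.93 and 11.91 in untreated EPM, 13.5 and 13.55 in untreated B cells, and 13.3 and 13.33 in BMDM with DMSO for 1 h. So the size for Psmb8, and which gene leads, depend on the probe. Set against BMDM, B cells were higher in Psme1 by 0.78 and lower in Psmb9 by 0.62, and 11 of the 43 genes were higher and 18 lower where 76.6% of all genes were called, 37.5% higher and 39.1% lower. In EPM, DMSO for 12 h left 4 of the 5 inducible genes lower than in untreated cells, Psmb8 by 0.47, Psmb9 by 0.39, Psme1 by 0.33 and Psmb10 by 0.31, where 19.1% of all genes were called, 10.8% higher and 8.31% lower. Time in culture and DMSO cannot be told apart there.

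At 1 h the inducible genes had not risen. Psmb9 in EPM was at 12.17 and 12.05 untreated and at 11.97 in both KLA channels, and in BMDM at 13.13 and 13.11 with DMSO and at 12.93 and 12.92 with KLA. Psmb8 in EPM was at 13.12 and 13.13 untreated and at 12.72 and 12.82 after KLA, a change of −0.36 (adjusted p = 0.012), but its second probe gave 0.02. In EPM 13 of the 43 genes were called lower and 0 higher, where 29.1% of all genes were called, 9.39% higher and 19.7% lower, and in BMDM 13 were lower and 1 higher, where 28.6% were called, 11% higher and 17.6% lower. The medians of the 43 genes were −0.15 and −0.12, against −0.05 and −0.03 over all genes.

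The genes called lower at 1 h came from several parts of the particle. In EPM Psma7 changed by −0.37 (adjusted p = 0.00781), Psmb1 by −0.32 (adjusted p = 0.000176) and Psmd8 by −0.28. In BMDM Psmd1 changed by −0.45 (adjusted p = 0.00315) and Psma2 and Psma5 by −0.38 each, and Psme3 was the 1 gene called higher, at 0.31 (adjusted p = 0.0383). These calls depended on the processing. When array means were the samples, 0 of the 43 genes were called in either macrophage at 1 h (limma, where 0.951% and 0.571% of all genes were called), with the dye block 1 was higher and 24 lower in EPM, where 40.7% of all genes were called, and leaving out any 1 of the 4 EPM channels gave between 4 and 8 called genes. The difference of the 1 h responses between EPM and BMDM was called for 1 gene, Psmb6, at −0.39 (adjusted p = 0.034). It was not called at a normexp offset of 16 or in the authors' table. Of all genes 9.56% were called, 4.07% with a higher signed value in EPM and 5.49% with a lower one.

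For B cells the labels and the authors' table conflict. In 20 of the 24 columns of that table the values matched the channels of their own label, with correlations of 0.98 or more over probes, but the columns for B cells with KLA for 1 h matched the array labelled DMSO 12 h (r = 0.99), and the reverse. Which of the 2 is right could not be settled, so the scanner labels were kept. Counts of the main fit and the 12 h differences from macrophages are also given with those labels exchanged. Markers of other cells also differed between the B cell arrays. Emr1, a macrophage surface marker, lay between 7.41 and 7.56 on the arrays labelled untreated and KLA 1 h. It lay between 10.51 and 10.92 on those labelled DMSO 12 h and KLA 12 h. The log2 summed level of the 8 macrophage markers was 11.25 to 11.61 on the former and 12.51 to 12.68 on the latter, and that of 4 erythroid markers 13.36 to 13.77 and 11.82 to 12.36. That of 4 dendritic cell markers was 14.45 to 14.55 on the former and 13.44 to 13.61 on the latter, and that of 6 T cell markers 12.14 to 12.25 and 12.29 to 12.48. That of 3 NK cell markers was 8.91 and 9.05 on the KLA 1 h array and 7.97 to 8.17 on the other B cell arrays. Their part in the differences below was not tested.

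With the labels as given, few of the 43 genes were called in B cells. At 12 h Psmb8 was at 13.81 and 14.04 with DMSO and at 13.75 and 13.93 with KLA. Psmb9 was at 13.03 and 13.16 against 13.09 and 13.11, and Psmb10 at 14.13 and 14.17 against 14.02 and 14.11. The groups overlapped for all catalytic subunits but Psmb10. Psme2 went from 15.42 and 15.32 to 15.62 and 15.61, without overlap. Its change was 0.24, not called, and 0.25 by its second probe. In order of increase among all genes tested it was at place 686. Psme1 went from 13.99 and 14.04 to 14.05 and 14.18, a change of 0.10 that was not called. At 1 h 0 of the 43 genes were called by limma (5.17% of all genes were, 2.72% higher and 2.45% lower), and 6 were with the dye block, where 13.9% of all genes were. At 12 h 2 were higher and 0 lower (5.29% of all genes were called, 2.81% higher and 2.48% lower), namely the ATPase Psmc4 at 0.36 (adjusted p = 0.00878) and Psmd14, the deubiquitinase of the lid, at 0.35 (adjusted p = 0.00299). With the labels exchanged, Psmc4 was called lower, at −0.35 (adjusted p = 0.0011), and Psmd14 was not called, at 0.07.

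With the labels exchanged, 3 genes were higher and 22 lower at 1 h, where 47.4% of all genes were called, 25% higher and 22.4% lower, and 4 were higher and 15 lower at 12 h, where 49.1% were called, 24.8% higher and 24.4% lower. Psmb9 was the 1 catalytic subunit of the immunoproteasome called, at 0.59 for 1 h and 0.58 for 12 h, while Psme1 was at −0.53 and −0.36 and Psmb7 at −0.71 and −0.68. Of the 5 inducible genes, 1 was called higher and 1 lower at 1 h, and 2 higher and 1 lower at 12 h. Psme2 stood at 15.62 and 15.61 with KLA for 12 h, and at 15.36 and 15.31 on the array then read as its control. The exchanged 1 h values are those of DMSO 12 h against untreated cells with the labels as given.

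**Figure D4:**
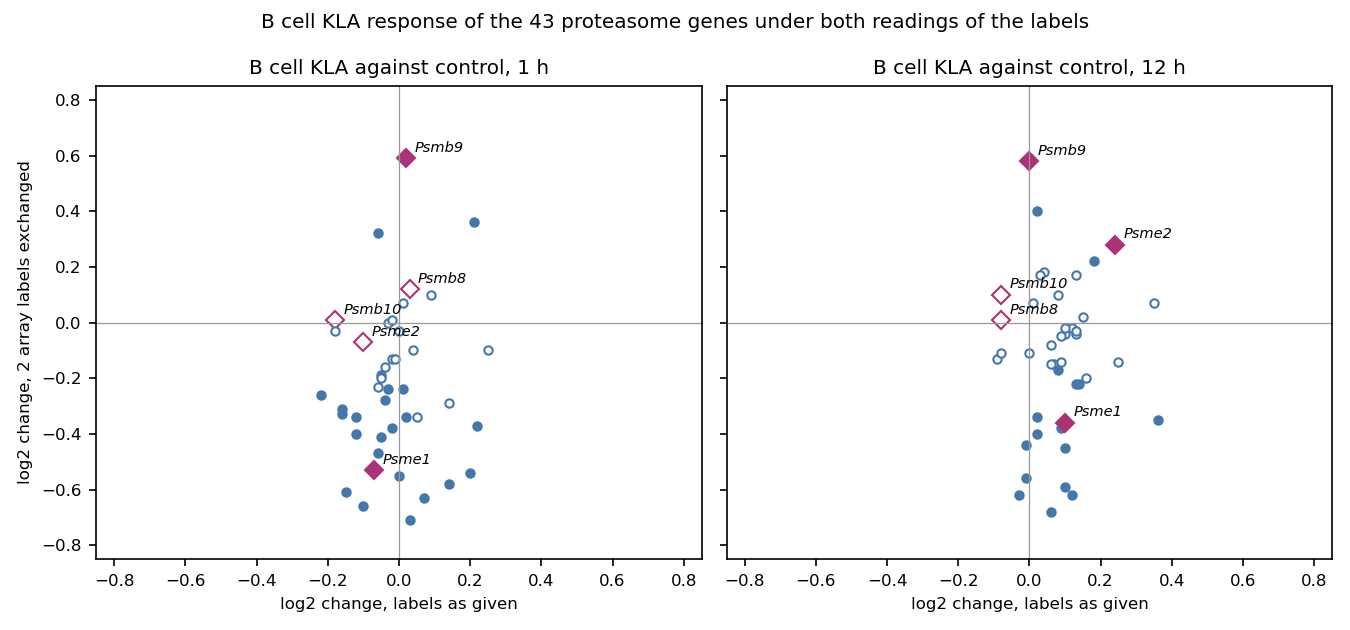
Log2 change of each of the 43 genes in B cells after KLA with the labels as given (x axis) and with the KLA 1 h and DMSO 12 h labels exchanged (y axis), diamonds for the 5 inducible genes and filled symbols for genes called with the labels exchanged. The points spread far more along the y axis than along the x axis at both times.

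The inducible genes responded less in B cells than in macrophages whichever labels were used. The difference of the 12 h responses was called for all 5 against EPM, by 1.37 to 3.31 with the labels as given and 1.33 to 2.74 with them exchanged, and for all 5 against BMDM, by 1.13 to 2.29 and 1.1 to 2.1. Over the 43 genes, the signed change was higher for 18 and lower for 3 in EPM than in B cells, where 45.1% of all genes were called, 16.9% higher and 28.2% lower, and higher for 13 and lower for 9 in BMDM, where 57.5% were called, 25.3% higher and 32.2% lower. With the labels exchanged, it was higher for 28 and lower for 2 in EPM, where 58.1% of all genes were called, 24.8% higher and 33.3% lower, and higher for 20 and lower for 4 in BMDM, where 65.6% were called, 30.2% higher and 35.4% lower. The 3 cell types share no control samples, but each lies on a slide of its own.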

How the data were processed

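Per the submitters' processing notes, the arrays were scanned and extracted with Agilent Feature Extraction 9.5.3.1. The deposited scanner files gave, for each spot, the mean intensity and the median background of both channels and a processed intensity, and the authors also deposited a table of normalised intensities on a linear scale, used here as an alternative. Both files of an array were identical in 12 of 12 arrays. Here intensities were background-corrected with normexp (offset 50), normalised by loess within arrays and by Aquantile between arrays, and analysed as single channels on the log2 scale in R 4.3.3 with limma 3.58.1. Control spots and outlier spots were left out, spots of a probe were averaged, and the brightest probe stood for a gene. Genes had to exceed background clearly in both replicates of 1 or more conditions, which left 17347. Between 57.4% and 65% of probes were well above background in a channel, and the number of arrays limits the precision. The model had a term for each of the 12 conditions and 12 residual degrees of freedom, and p-values were adjusted by Benjamini-Hochberg across every gene tested.

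On simulated data for EPM at 12 h over 17239 genes, 100 of 100 genes changed 2-fold and 100 of 100 changed 4-fold came back as calls, with 10 false calls. The simulated noise was independent between channels, at each gene's spread within conditions, with no array effect and no shared dye effect. It therefore cannot tell how many false calls differences between arrays would give. Every pair of arrays shared dye effects (the Cy5 minus Cy3 differences correlated at 0.26 to 0.63 over 66 pairs), so the replicate number pairs the channels through the dye, and a block for it was fitted as an alternative. Genes named beside the inducible subunits and their counterparts were, for each comparison, those called with the largest changes. The members and lists were chosen with earlier results of these data known. Promoters are from RefSeq (GRCm38.p6). Some single members of the marker and partner lists are not reported here.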

Additional observations from a re-analysis of the deposited data

Results flagged for a closer look

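The KLA response of the following genes differed between EPM and BMDM by the test of the difference itself, given as the log2 change in EPM minus that in BMDM. At 1 h this was so for Psmb6, at −0.39. At 12 h the difference was positive for the inducible subunits Psmb9 (1.57), Psmb8 (1.36), Psmb10 (0.59) and Psme1 (0.55), and for Psmd1 (0.74), Psma5 (0.72), Psmb7 (0.46), Psma2 (0.45) and Psmc3 (0.41). The difference was positive as well for the assembly factors Tnfsf5ip1 (0.89), Dscr2 (0.51) and Pomp (0.25). It was negative for Psme3, at −0.49. In Psmd1 the changes had opposite signs, 0.27 in EPM and −0.47 in BMDM, and in Psmc3 they were 0 and −0.41.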

How the results depend on the processing

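The 5 inducible genes were called higher at 12 h in both macrophages under every setting tried, between 3.12 and 3.55 for Psmb9 in EPM and between 1.32 and 1.73 for Psmb8 in BMDM, for example. Counts of called genes among the 43 moved more. At 1 h in EPM 13 became 7 with an offset of 16, 7 with the processed intensities, 5 without normalization between arrays, 1 in the authors' table, 7 after centring on all genes, 3 at an adjusted p of 0.01 and 0 with array means. At 1 h in BMDM 14 became 7 without normalization between arrays, 5 in the authors' table, 6 at an adjusted p of 0.01 and 0 with array means. With the replicate block, which pairs channels by dye, the counts were 25 for EPM at 1 h, 6 and 5 for B cells at 1 h and 12 h, and 8 for the difference of EPM and BMDM at 1 h, and no other count moved by over 1.5 times.

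At 12 h array means called 11 genes in EPM and 10 in BMDM, of which 5 higher and 1 lower, and 4 higher and 1 lower, were outside the inducible genes. The other genes called higher at 12 h in EPM were 33 without normalization between arrays and 31 in the authors' table, against 20. In BMDM they were 20 higher and 3 lower in the authors' table, and 7 were lower with the mean of probes, against 12 and 12. Without normalization between arrays the median of all genes at 12 h in BMDM was −0.14, against −0.03. For B cells the counts at 1 h and 12 h were 24 and 16 in the authors' table, 25 and 19 with labels exchanged, 1 and 1 with the mean of probes, 3 at 1 h without normalization between arrays and 0 at 12 h with array means. The 1 h difference of EPM and BMDM counted 2 genes with the mean of probes, and 0 with an offset of 16, in the authors' table, at an adjusted p of 0.01 or with genes well above background in all channels.

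Among the single-gene values compared across settings, reversed signs with a call in the main fit or in the other setting were few. Those values leave out Psma1, Psmb1 and Psmb3 at 12 h in BMDM, whose signs turned in the authors' table as given above. Sign changes with no call in either are not listed here. In EPM Psmb6 at 1 h was 0.01 without normalization between arrays and 0.01 in the authors' table, and Psmd2 at 12 h was 0.03 without it. In B cells, in the authors' table and with labels exchanged respectively, Psmb7 at 1 h was −0.68 and −0.71, and at 12 h Psmb6 was −0.27 and −0.22, Psmb7 −0.61 and −0.68, Psme1 −0.42 and −0.36, and Psmc4 −0.33 and −0.35. The cause was not tested, but both use the other assignment of the conflicting arrays.

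Leaving out 1 channel at a time gave 4 to 8 called genes for EPM at 1 h, 25 to 26 at 12 h, 7 to 10 for BMDM at 1 h and 22 to 27 at 12 h. It gave 0 to 1 and 0 to 2 for B cells, 0 to 1 and 20 to 23 for the differences between EPM and BMDM at 1 h and 12 h, and 5 inducible genes each time. Outside the inducible genes it gave 17 to 19 higher and 2 to 4 lower in EPM at 12 h, and 9 to 12 higher and 7 to 10 lower in BMDM, the 7 without replicate 1 of KLA. Of 1883 values for single genes, 113 kept direction but fell short of the threshold, and 63 kept direction and newly passed it. A further 13 reversed with a call in either fit. The remaining 1694 kept direction and side of the threshold, or changed sign with no call in either fit. On the forward strand alone the ISRE core was in 1 of the 36 genes and the ARE core in 3.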

Other observations

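Probes of 1 gene did not always move together. For Psmd12, a lid subunit, a dimmer probe that was well above background in 22 of the 24 channels stood at 5.89 and 5.88 in untreated EPM, where the lowest signal well above background was 5.44 to 6.16 over the channels, and at 9.82 or more in the other EPM channels, so that its change at 1 h has no measured size. The probe used gave a log2 change of −0.16 there and the third gave −0.01. For Psmb8 the second probe gave 3.01 in EPM and 1.26 in BMDM at 12 h, and for Psme2 it gave 2.44 and 1.84.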
